A study of Mus musculus with 140 samples.

Results

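The 5 genes Scn1a, Scn2a, Scn3a, Scn8a and Scn9a encode pore-forming alpha subunits of voltage-gated sodium channels. They were chosen by name, among 55536 annotated mouse genes, with earlier results of these data known. Their members in the data are the clusters, that is, the stretches of RNA covered by reads of an immunoprecipitation (IP), whose midpoint and strand fell in these genes. Of the 13239113 clusters in the 70 IP libraries, 12139 lay in the 5 genes, and 6412 of these were enriched, which here means a −log10 p of at least 3 and a log2 fold of IP over input above 0. Scn1a held 2474 listed and 1169 enriched clusters, Scn2a 3158 and 2376, Scn3a 1801 and 610, Scn8a 3815 and 2118, and Scn9a 891 and 139.

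Alpha subunits open on depolarization and carry the inward sodium current that starts the action potential. Scn1a is best known from parvalbumin interneurons, Scn2a and Scn8a from the axon initial segment of excitatory neurons and, for Scn8a, from nodes of Ranvier, Scn3a from the embryonic brain, and Scn9a from peripheral nociceptors. TDP-43 is a nuclear RNA-binding protein that prefers UG-rich sequence, and N6-methyladenosine (m6A) is a mark placed on adenosine within mRNA, known to gather in last exons around the stop codon.

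Both were mapped by eCLIP, a method that sequences immunoprecipitated RNA fragments beside an input library. R6/2 mice, which carry a transgene of human mutant HTT exon 1 on a B6CBA background, were set against non-transgenic (NT) mice, at 3 months of age, in striatum and cortex, with 8 libraries (4 male, 4 female) per assay, region and genotype. In a second experiment C57Bl/6 males were injected into the cerebral ventricle at 5 weeks of age. They received 500 µg of an oligonucleotide that lowers TDP-43 (antisense, ASO) or PBS. After 2 weeks m6A was mapped in 3 ASO and 3 PBS libraries, labelled cortex and 2 months of age. The treatment description names striatum as the dissected tissue, and the methods of the study name both cortex and striatum. Bulk tissue was used, so that a lower number of cells of a type and less RNA per cell cannot be told apart, and the RNA level of the genes was not measured here.

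A smaller part of the listed clusters was enriched in TDP-43 than in m6A libraries. For TDP-43 the median part was 6.71% in R6/2 and 12.1% in NT striatum, and 15% in R6/2 and 19.5% in NT cortex. For m6A it was 40.8% in R6/2 and 41.4% in NT striatum, and 39.6% in R6/2 and 39.5% in NT cortex. Enriched clusters per library ran between 6769 and 24430 in R6/2 and between 4929 and 24127 in NT for TDP-43 in striatum, between 15804 and 44115 in R6/2 and between 28913 and 54932 in NT for TDP-43 in cortex, and between 56405 and 86910 for m6A over both regions and genotypes. In the TDP-43 striatum experiment 5 R6/2 libraries, male 4 and females 1 to 4, had at least 30% of their listed clusters in introns, and so had 3 R6/2 libraries of TDP-43 in cortex (male 4, females 2 and 4). The share ran between 18.8 and 47.4% in R6/2 and between 16.1 and 25.7% in NT striatum libraries, and between 23.9 and 35.9% in R6/2 and between 19.6 and 29.7% in NT cortex libraries, so that it moved with genotype in both regions. Gene and site tests were also run without these libraries. In striatum this left R6/2 males 1, 2 and 3 and no R6/2 female, against NT libraries of both sexes. The parts of intron share, sex and group size in that refit cannot be told apart. Of 9 medium spiny neuron markers, all 9 tested for m6A and all 6 tested for TDP-43 were higher in NT striatum than in NT cortex, and all cortical excitatory markers tested (7 and 3) were lower. In the ASO experiment 99.2 to 99.3% of cluster intervals were identical between libraries of a treatment and 1.96 to 1.97% between treatments, so that the spread between libraries of a treatment holds little of the cluster calling. Tardbp, the gene that the ASO targets, had 7, 8 and 9 enriched m6A clusters in ASO libraries and 18, 17 and 25 in PBS libraries. It had 12 listed clusters in every ASO library and 27 in every PBS library. The enriched counts thus also hold the division into clusters and are no direct measure of its level.

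All 5 members had an m6A site with GGACT, a form of the m6A consensus, in the last exon before the stop codon. In GRCm38 (mm10), Scn1a lies at chr2:66270778-66440840 on the minus strand, Scn2a at chr2:65620771-65767447 on the plus strand, Scn3a at chr2:65457118-65567627 on the minus strand, Scn8a at chr15:100869858-101045938 on the plus strand and Scn9a at chr2:66480080-66634962 on the minus strand. The reference transcript of each has 27 exons, with the stop codon in exon 27. A site is a stretch on which enriched clusters of 4 or more of the 16 libraries of a region lie. In each gene 1 site in the coding part of exon 27 held GGACT. The site of Scn9a (chr2:66484142-66484290, minus) is shown because several comparisons turn on this gene, with GGACT in capitals.
Scn9a: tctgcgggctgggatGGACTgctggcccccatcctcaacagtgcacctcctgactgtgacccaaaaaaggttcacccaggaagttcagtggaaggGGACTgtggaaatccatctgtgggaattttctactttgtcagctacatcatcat

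The Scn9a site held GGACT at 2 places. The sites of Scn1a, Scn2a, Scn3a and Scn9a were enriched in 32, 32, 32 and 22 of the 32 R6/2 and NT m6A libraries, with mean log2 folds of 2.99 ± 0.26, 3.13 ± 0.38, 3.02 ± 0.33 and 3.12 ± 0.54 (SD over the libraries that listed the site). The site of Scn8a was enriched in 32 of 32 libraries with a mean log2 fold of 1.98 ± 0.33. The mean height lay within 1 SD among the 4 first sites and was lower in Scn8a, whereas the share of libraries with an enriched cluster was lower in Scn9a. Reads that map to stretches shared between members may be assigned to another of them: 10, 12.2, 12, 0.517 and 7.57% of the 30-base stretches of the Scn1a, Scn2a, Scn3a, Scn8a and Scn9a reference transcripts also occur in another of the 5. Of such stretches in the sites of Scn1a, Scn2a, Scn3a and Scn9a 59.2, 26.9, 31.6 and 19.2% were shared.

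Exons 10, 11, 12 and 17 held a coding TDP-43 site in each of Scn1a, Scn2a, Scn3a and Scn8a. Those of exon 10 held no TGTGT in any of the 4 genes. The exon 10 sites were enriched in 21, 28, 14 and 28 of 32 TDP-43 libraries in Scn1a, Scn2a, Scn3a and Scn8a, with mean log2 folds of 1.82 ± 0.57, 2.62 ± 0.64, 1.98 ± 0.75 and 2.48 ± 0.80. The exon 10 site of Scn3a had a mean log2 fold within 1 SD of that of Scn1a and was enriched in fewer libraries. Scn9a had no TDP-43 site. A different kind of TDP-43 site lay in the 3′ UTR of Scn8a (site chr15:101045251-101045342, plus), where the 30 bases at chr15:101045281-101045310 hold a UG repeat, shown with its overlapping TGTGT matches in capitals.
Scn8a 3′ UTR: acatgtaTGTGTGTGTGTGTGTgaagaatg

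It held 6 TGTGT matches, overlaps included, was enriched in 24 of 32 TDP-43 libraries and had a mean log2 fold of 3.69 ± 0.89. The motif was less frequent in the coding sites. Over sites of the cortex, TGTGT (searched on the transcribed strand) was found in 2 of 66 coding TDP-43 sites, or 3.03%, against 5.72% of coding sites of like length in all genes, and in 6 of 27 sites in 3′ UTRs, or 22.2%, against 13.9%. GGACT was found in 11 of 34 coding m6A sites (32.4%, against 23.1% of sites of like length) and in 6 of 14 in 3′ UTRs (42.9%, against 34.1%). A match of letters is a description and no measure of binding or of methylation.

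The members' m6A sites and enriched clusters lay more often in the exon with the stop codon than those of TDP-43. The members held 95 TDP-43 sites (17 in Scn1a, 36 in Scn2a, 4 in Scn3a, 38 in Scn8a, none in Scn9a) and 60 m6A sites (10, 16, 10, 17 and 7). Of the TDP-43 sites 66 lay in coding sequence, 28 in 3′ UTRs and 1 in a 5′ UTR, and 33 of the 95 were in the exon with the stop codon. Of the m6A sites 39 were coding, 15 in 3′ UTRs, 5 in 5′ UTRs and 1 in an intron, and 33 of the 60 were in that exon. Counted over clusters, exon 27 held between 67.6% (Scn2a) and 89.8% (Scn8a) of the enriched m6A clusters of a gene, against 0% (Scn3a) to 40.5% (Scn8a) of the enriched TDP-43 clusters.

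**Figure D1:**
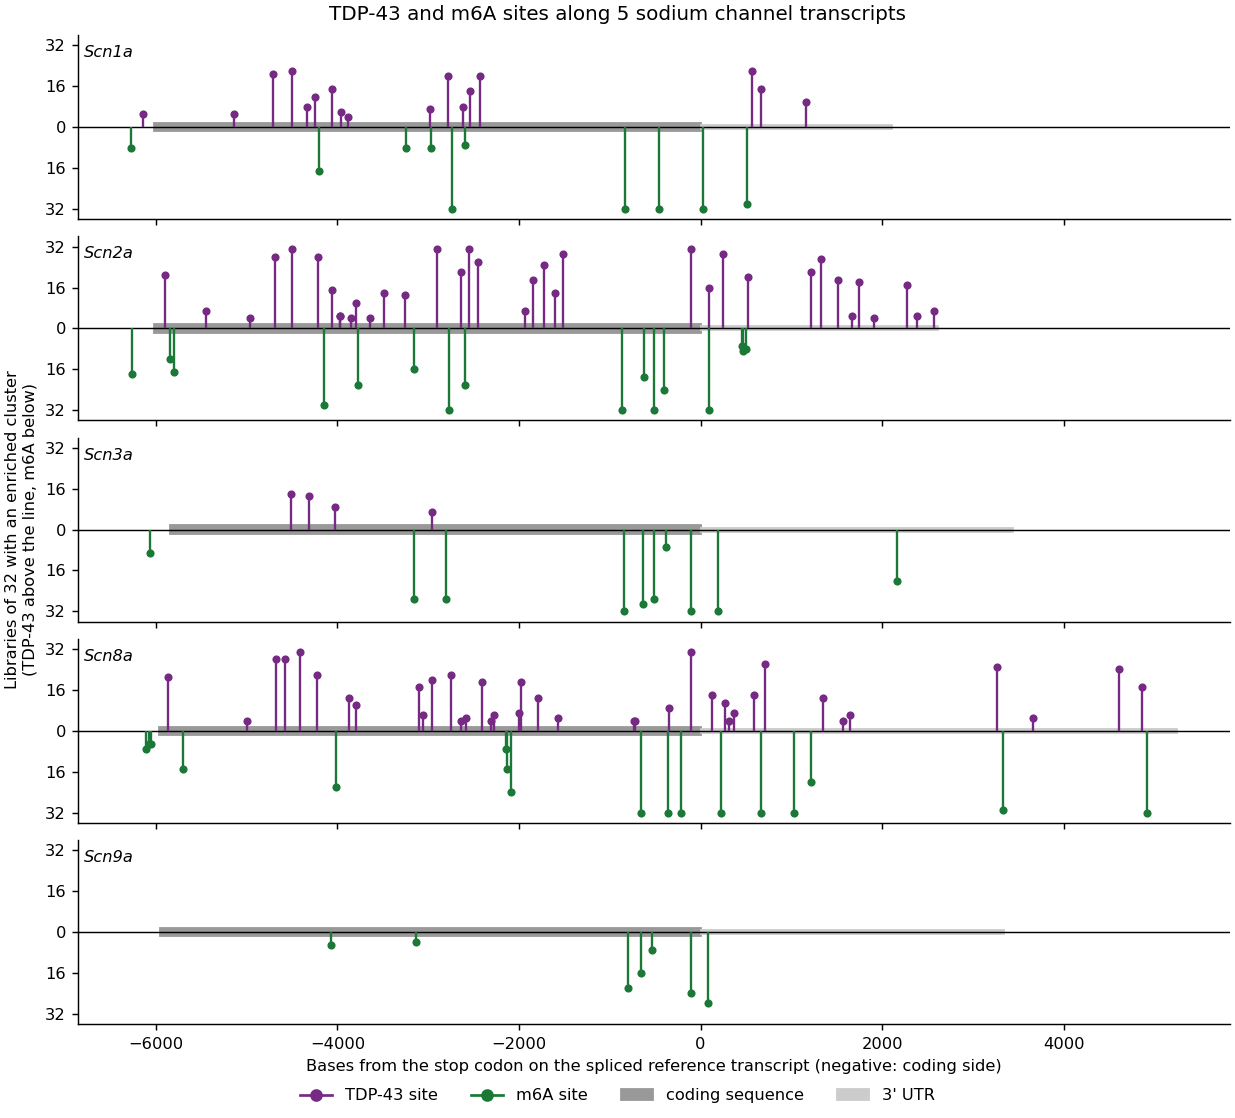
Sites of the 5 genes along the spliced reference transcript, with bases from the stop codon on the horizontal axis and, on the vertical axis, the number of the 32 R6/2 and NT libraries of an assay with an enriched cluster (TDP-43 above the line, m6A below). The 18 m6A sites enriched in all 32 libraries reach the lowest mark, most of them in exon 27, and Scn9a has no TDP-43 site.

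No TDP-43 site was enriched in all 32 libraries, whereas 18 m6A sites were. The TDP-43 sites found most often, in 31 of 32 libraries each, lay in exons 11, 17, 18 and 27 of Scn2a (the first 3 at chr2:65690047-65690311, chr2:65717426-65717742 and chr2:65726327-65726448) and in exons 11 and 27 of Scn8a (chr15:100974546-100974716 and chr15:101040438-101040732), with mean log2 folds between 2.25 and 3.27. Within a region, sites of the 2 assays overlapped in Scn1a, Scn2a and Scn8a, and no site of Scn3a overlapped one of the other assay. Of the members' TDP-43 sites 16 of 48 (33.3%) in striatum and 28 of 94 (29.8%) in cortex overlapped an m6A site by at least 1 base, against 23.5% and 21.8% of TDP-43 sites in all genes. Of the members' m6A sites 12 of 52 (23.1%) and 18 of 53 (34%) overlapped a TDP-43 site, against 8.76% and 16.5%. Site lengths differ between genes, and these shares were not tested.

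The 5 genes differed widely in level. A gene's value is its number of enriched clusters divided by the size factor of the library, and per kilobase of annotated exon it can be set against another gene. For m6A in R6/2 striatum, the mean level was highest in Scn2a (3.08 ± 0.45 clusters per kb, SD, n = 8), then Scn8a (2.09 ± 0.17) and Scn1a (1.81 ± 0.27), then Scn3a (1.47 ± 0.19), and lowest in Scn9a (0.616 ± 0.180). NT striatum had 3.16, 2.21, 1.98, 1.41 and 0.244 per kb in the same order of genes. Scn8a and Scn1a did not differ beyond their spread in R6/2 striatum, where Scn8a ran between 1.85 and 2.33 and Scn1a between 1.47 and 2.26.

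For TDP-43 the order was the same but the distances were larger. In R6/2 cortex the level was 2.94 ± 0.40 per kb in Scn2a, 1.82 ± 0.47 in Scn8a, 0.887 ± 0.441 in Scn1a and 0.178 ± 0.121 in Scn3a, and in NT cortex 2.76 ± 0.39, 2.24 ± 0.26, 1.37 ± 0.28 and 0.154 ± 0.127. Scn9a had no enriched TDP-43 cluster in any of the 32 libraries. Scn2a and Scn8a overlapped in NT cortex, at 2.08 to 3.29 and 1.73 to 2.46 per kb, whereas the highest Scn3a value, 0.332 in NT cortex, lay below every NT cortex value of Scn1a. In R6/2 cortex the ranges of Scn3a (0 to 0.317) and Scn1a (0.23 to 1.49) overlapped.

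**Figure D2:**
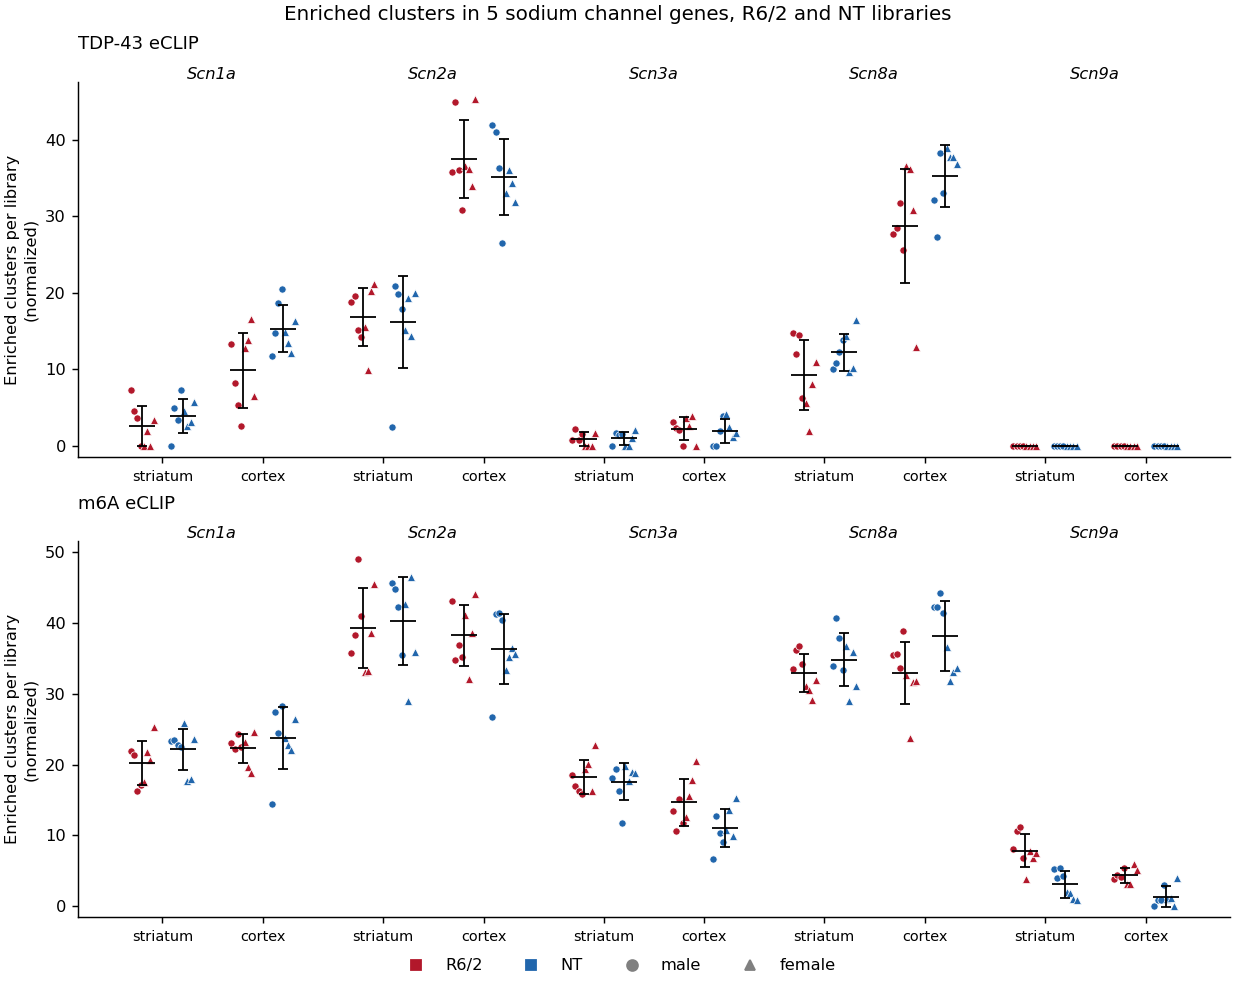
Normalized enriched clusters per library (vertical axis) of the 5 genes in TDP-43 eCLIP (top) and m6A eCLIP (bottom), with R6/2 left of NT in each region. Points are libraries, marked by sex, and bars give the mean and SD, n = 8, with the Scn9a m6A means of 7.86 in R6/2 and 3.11 in NT striatum set apart from the overlapping means of the other genes.

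The first comparison asked whether TDP-43 binding to these transcripts differs in R6/2 brain. None of the 3 members tested in striatum and none of the 4 tested in cortex passed the test, where 14.3% and 7.52% of all genes tested did. Scn1a had 0 to 9 enriched clusters (median 2.5) in R6/2 striatum and 0 to 9 (median 5.5) in NT striatum, and 2 to 21 (median 10) in R6/2 cortex, against 11 to 31 (median 17) in NT cortex. The groups overlapped in both regions, with the R6/2 cortex libraries mostly in the lower part. After normalization the mean was 9.89 ± 4.91 in R6/2 cortex and 15.3 ± 3.07 in NT cortex, a log2 change of −0.77 (SE 0.27, limma adjusted p = 0.0995), and leaving out each library in turn gave adjusted p between 0.0524 and 0.188.

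Scn8a had 6 to 42 clusters (median 28.5) in R6/2 cortex and 24 to 50 (median 42) in NT cortex, with a change of −0.34 (SE 0.16, adjusted p = 0.238), which was −0.14 without R6/2 female 4. In striatum Scn1a changed by −0.91 (SE 0.68, adjusted p = 0.449) and Scn8a by −0.55 (SE 0.29, adjusted p = 0.237). Leaving out 1 library moved these to −1.44 without NT male 1 and −0.58 without R6/2 male 4 for Scn1a, and to −0.28 without R6/2 female 2 for Scn8a. Without the 5 R6/2 libraries rich in introns, which left R6/2 males only, both striatal changes turned positive, at 0.92 and 0.26. Without the 3 of cortex, a fit added after seeing the data, the cortex changes were −0.45 for Scn1a (adjusted p = 0.260) and −0.12 for Scn8a (adjusted p = 0.552). Scn2a, the member with most TDP-43 clusters, had 21 to 43 (median 36.5) in R6/2 cortex and 31 to 43 (median 39.5) in NT cortex. Its change was 0.09 in cortex (adjusted p = 0.636) and 0.20 in striatum (adjusted p = 0.753, and 0.59 with adjusted p = 0.524 without the 5 libraries), against a median change over all genes of −0.09 and −0.05. Scn3a had at most 6 enriched TDP-43 clusters in a library and changed by 0.19 in cortex (SE 0.58, adjusted p = 0.863, and 1.1 with adjusted p = 0.264 without the 3 libraries), and in striatum it was below the minimum for a test.

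At the level of single sites, none of 38 member sites tested for TDP-43 in striatum and none of 65 in cortex passed the test on the log2 fold of IP over input, where 0.315% and 0.305% of all sites did. The changes leaned to lower values in R6/2, in 27 of 38 sites of striatum (median −0.11) and 48 of 65 of cortex (median −0.17), and so did those of all sites, with medians of −0.20 and −0.21. Without the intron-rich libraries, 25 of 40 sites of striatum were higher in R6/2 (median 0.27). Of 67 sites of cortex 32 were higher and 35 lower (median −0.02). No member site was called (2 and 4 at an unadjusted p under 0.05, limma). The lean to lower values was thus not kept in the striatum refit, which held R6/2 males only, and was nearly even in cortex. The lowest p in cortex was at a coding site in exon 16 of Scn8a (chr15:101013491-101013563, plus), which holds 1 TGTGT. Its log2 fold was 1.61 to 3.08 in 7 R6/2 libraries and 2.68 to 4.56 in 8 NT libraries. The means of 2.43 ± 0.56 and 3.55 ± 0.56 differed by −1.11 (SE 0.33, adjusted p = 0.14), and by −1.22 without the 3 libraries (adjusted p = 0.332). In striatum a site in exon 11 of Scn1a (chr2:66325904-66326107, minus) had 0.88 ± 0.85 in R6/2 and 1.88 ± 0.43 in NT, a difference of −1.0 (SE 0.34, adjusted p = 0.207), which was −0.48 without the 5 libraries (adjusted p = 0.835). The UG repeat in the Scn8a 3′ UTR had a mean log2 fold of 3.61 ± 1.25 in R6/2 cortex and 3.99 ± 0.66 in NT cortex, which overlapped (difference −0.37, SE 0.44, adjusted p = 0.764).

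For m6A, 1 of the 5 members was called in R6/2 striatum and the same gene, Scn9a, in R6/2 cortex, where 9.66% and 6.24% of all genes tested were called. In cortex Scn9a met the minimum for a test through the R6/2 libraries. The 4 other genes did not pass in striatum. There Scn1a averaged 20.2 ± 3.04 in R6/2 and 22.1 ± 2.83 in NT (change −0.13, adjusted p = 0.4664), Scn2a 39.3 ± 5.68 and 40.2 ± 6.19 (−0.03, adjusted p = 0.892), Scn3a 18.3 ± 2.36 and 17.6 ± 2.60 (0.06, adjusted p = 0.763) and Scn8a 32.9 ± 2.71 and 34.8 ± 3.79 (−0.08, adjusted p = 0.536), R6/2 first in each pair.

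In cortex Scn3a and Scn8a came near the threshold in opposite directions. Scn3a had 12 to 20 enriched m6A clusters (median 14.5) in R6/2 and 6 to 15 (median 10.5) in NT, a change of 0.40 (SE 0.13, adjusted p = 0.0606). Scn8a had 23 to 43 (median 34.5) in R6/2 and 28 to 47 (median 36) in NT, a normalized mean of 32.9 ± 4.38 against 38.1 ± 4.91 and a change of −0.21 (SE 0.065, adjusted p = 0.0554). Both groups overlapped in both genes. Single libraries decided the side of the threshold. Scn3a passed without NT male 2 (adjusted p = 0.0294), R6/2 female 1 (0.0383) or NT female 4 (0.042), and Scn8a passed without R6/2 female 1 (0.0426). With abutting clusters joined, the Scn8a change was 0.07 (adjusted p = 0.709). Scn1a (−0.07, adjusted p = 0.78) and Scn2a (0.08, adjusted p = 0.656) did not pass.

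Scn9a, the member with fewest clusters, had more m6A clusters in R6/2 libraries. In striatum the males had 7, 10, 11 and 6 enriched clusters in R6/2 and 5, 4, 5 and 4 in NT, and the females had 4, 9, 8 and 9 in R6/2 and 2, 2, 1 and 1 in NT. Within each sex the groups did not overlap, and over both sexes only the lowest R6/2 library overlapped the NT range. Such separation was not counted over all genes. The normalized mean was 7.86 ± 2.3 in R6/2 and 3.11 ± 1.86 in NT, a log2 change of 1.35 (SE 0.19, adjusted p = 5.95e-05), and of 0.85 in males alone (adjusted p = 0.0238) and 1.87 in females alone (adjusted p = 0.00251).

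In cortex males had 4, 5, 5 and 6 in R6/2 and 0, 1, 1 and 3 in NT, and females had 3, 3, 6 and 5 in R6/2 and 1, 1, 0 and 4 in NT. The groups overlapped only through the females. The normalized mean was 4.4 ± 1.03 in R6/2 and 1.40 ± 1.43 in NT, a change of 1.71 (SE 0.36, adjusted p = 0.00564). Within males (1.86, adjusted p = 0.0882) and within females (1.56, adjusted p = 0.21) it did not pass. In cortex all 8 R6/2 libraries and 2 NT libraries reached the minimum of 2 enriched clusters, so that the gene entered the test through the R6/2 libraries.

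The Scn9a calls, like most m6A calls of all genes, were sensitive to how covered stretches were divided into clusters. The cluster caller splits a covered stretch into clusters that abut, and 48.4% of the enriched Scn9a clusters in R6/2 striatum abutted another, against 0% in NT striatum. With abutting clusters joined, R6/2 striatum had 2 to 8 stretches (median 6) and NT striatum 1 to 5 (median 3), and cortex had 2 to 5 (median 4) in R6/2 and 0 to 4 (median 1) in NT. The change was then 0.90 in striatum (adjusted p = 0.101) and 1.59 in cortex (adjusted p = 0.0724), so both calls were lost with the direction unchanged. Such loss was general. The main fits called 916 genes in striatum and 552 in cortex, and far fewer were called with clusters joined. These numbers are in the section on how the results depend on the processing. The number of bases covered by enriched clusters depends less directly on the division, which can still decide which clusters pass as enriched. It was 376 to 989 (median 670.5) in R6/2 striatum, against 62 to 510 (median 320.5) in NT striatum. In cortex it was 282 to 605 (median 485) in R6/2, against 0 to 350 (median 100.5) in NT. Joining was an alternative added after seeing the data. On covered bases both comparisons passed, with changes of 1.15 (adjusted p = 0.00483) and 1.80 (adjusted p = 0.0167), for genes kept by the same minimum of 2 enriched clusters, which Scn9a met in cortex through the R6/2 libraries.

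**Figure D3:**
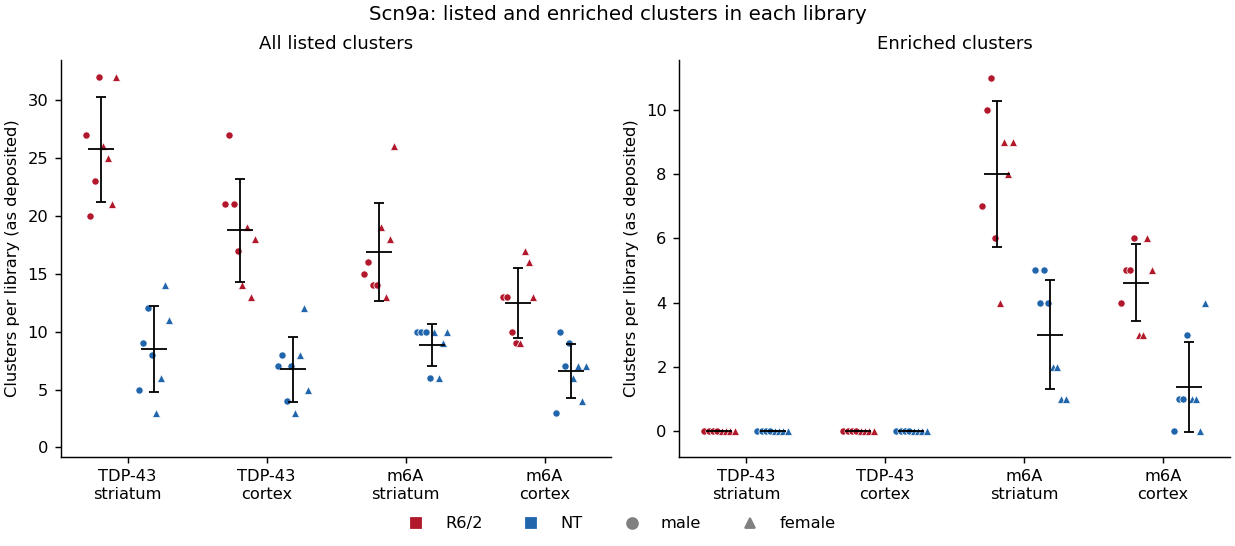
Listed and enriched clusters of Scn9a in each library as deposited (vertical axis, clusters per library), with R6/2 left of NT in each assay and region. Listed TDP-43 clusters number 20 to 32 in R6/2 striatum, against 3 to 14 in NT striatum, while no library has an enriched TDP-43 cluster.

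More R6/2 than NT libraries had an enriched cluster at the GGACT site of Scn9a. At the exon 27 site of Scn9a, 8 R6/2 and 4 NT striatum libraries and 7 R6/2 and 3 NT cortex libraries had an enriched cluster. Its mean log2 fold in striatum was 3.22 ± 0.42 in R6/2 and 2.90 ± 0.79 in NT, which overlapped (difference 0.32, SE 0.27, adjusted p = 0.798). The median log2 fold over all listed Scn9a m6A clusters was 1.85 in R6/2 and 2 in NT striatum, and 2.05 in R6/2 and 2.09 in NT cortex. At the thresholds of the study, which require a log2 fold above 3, R6/2 striatum held 11 clusters and NT striatum 12, and the change was −0.05 (adjusted p = 0.982), whereas R6/2 cortex held 17 and NT cortex 6. Without clusters that touch a 30-base stretch shared with another member, R6/2 striatum had 3 to 7 (median 5) enriched m6A clusters and NT striatum 1 to 3 (median 2), and cortex had 2 to 4 (median 3) in R6/2 and 0 to 2 (median 1) in NT.

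Clusters listed at any height gave the same direction for Scn9a in both assays. For TDP-43 they numbered 20 to 32 (median 25.5) in R6/2 striatum, against 3 to 14 (median 8.5) in NT striatum. In cortex they numbered 13 to 27 (median 18.5) in R6/2, against 3 to 12 (median 7) in NT. The genotypes did not overlap in either region, and such separation was not counted over all genes. The changes were 1.1 (SE 0.14, adjusted p = 5.76e-05, where 19.9% of all genes were called on listed clusters) and 1.02 (SE 0.14, adjusted p = 0.000237, where 5.3% were). In striatum the call was lost without the 5 intron-rich libraries, which left R6/2 males only (1.02, adjusted p = 0.0639). In cortex it was lost in females alone (0.81, adjusted p = 0.056). Without the 3 intron-rich cortex libraries the gene was below the minimum for a test. In most NT libraries the gene was below the minimum of 10 listed clusters and it entered these tests mainly through R6/2.

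These listed TDP-43 clusters were not enriched over input. Their median log2 fold was 0.219 in R6/2 and 0.0208 in NT striatum and 0.278 in R6/2 and 0.83 in NT cortex, and their highest −log10 p was 2.88. They lay mostly in coding sequence, 162 of 206 in R6/2 striatum and 55 of 68 in NT striatum. The part of the intron share, which moved with genotype in both regions, was not tested beyond the fits without the intron-rich libraries. For m6A, listed clusters numbered 13 to 26 (median 15.5) in R6/2 striatum and 6 to 10 (median 10) in NT striatum, a change of 0.65 (SE 0.10, adjusted p = 7.28e-05, with 7.76% of all genes called), and 9 to 17 (median 13) in R6/2 cortex and 3 to 10 (median 7) in NT cortex, where the gene was not tested (4.76% of those tested were called). Of the listed m6A clusters 28 of 135 were intronic in R6/2 striatum and 3 of 71 in NT striatum.

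On listed clusters none of the other 4 members was called in any of the 4 R6/2 comparisons, in which their changes ran between −0.17 and 0.17. The difference of the R6/2 effect between striatum and cortex was called for no member in either assay, where 0.0689% of genes for TDP-43 and 0.253% for m6A were. The lowest adjusted p was 0.612, for Scn3a m6A. At single m6A sites none of 31 member sites in striatum and none of 26 in cortex passed, where 0.0408% and 0.0123% of all sites did, with median differences of 0.02 and 0.07.

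**Figure D4:**
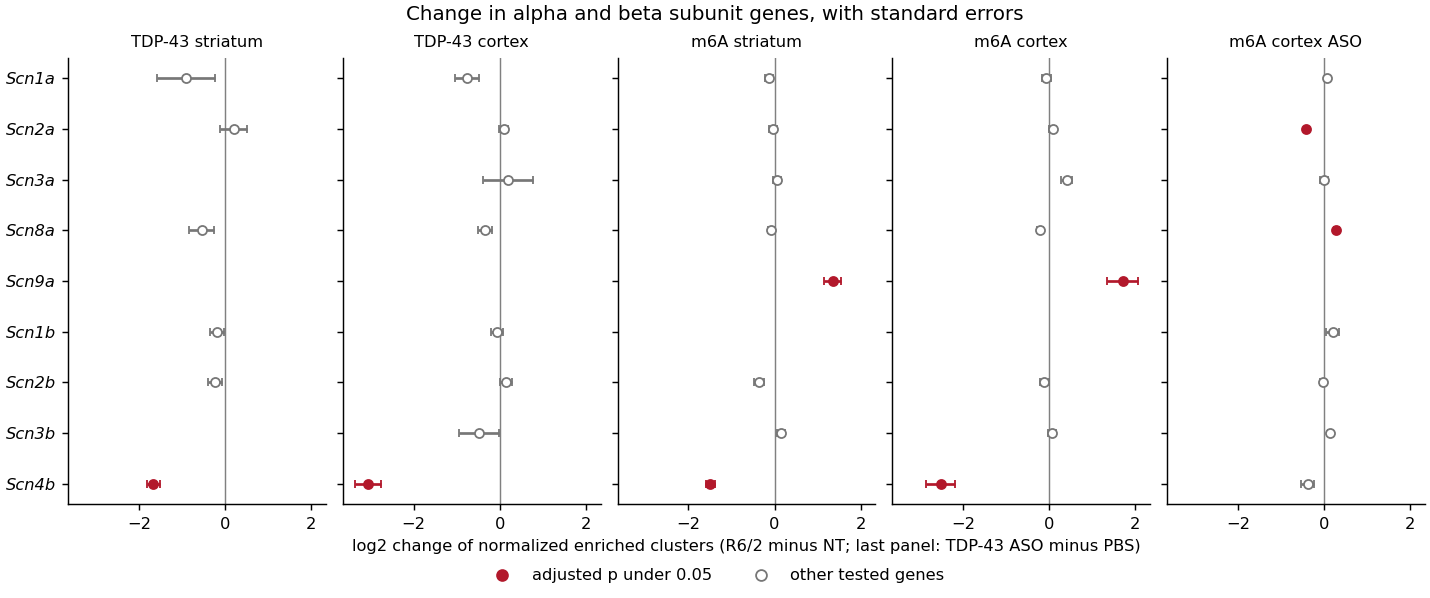
Log2 change of normalized enriched clusters (horizontal axis, with standard errors) for alpha and beta subunit genes, R6/2 minus NT in the first 4 panels and ASO minus PBS in the last. Filled red points passed an adjusted p of 0.05: Scn9a is higher in both m6A comparisons, Scn4b lower in all 4 R6/2 comparisons, and Scn2a lower and Scn8a higher after the ASO. In m6A cortex Scn9a met the minimum for a test through the R6/2 libraries.

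The second experiment asked whether m6A differs after lowering of TDP-43. Of the 4 members tested Scn2a was lower and Scn8a higher in ASO libraries, where 30.5% of all genes were called. Scn2a had 34, 34 and 35 enriched m6A clusters in ASO libraries and 49, 50 and 53 in PBS libraries, and Scn8a had 44, 47 and 47 in ASO libraries and 38, 43 and 44 in PBS libraries. The treatments did not overlap for Scn2a, and for Scn8a touched at 44 before normalization. Such separation was not counted over all genes. Normalized means were 36.1 ± 0.32 (ASO) and 48.2 ± 0.21 (PBS) for Scn2a, a change of −0.41 (SE 0.019, adjusted p = 0.00127), and 48.3 ± 1.22 (ASO) and 39.6 ± 2.89 (PBS) for Scn8a, a change of 0.29 (SE 0.055, adjusted p = 0.0129).

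Both calls were lost on joining abutting clusters, whose intervals differed between the treatments and hardly within them. Over all genes, too, most calls were lost on joining, as given in the section on how the results depend on the processing. With abutting clusters joined, Scn2a had 9, 9 and 10 stretches in ASO and 11, 12 and 13 in PBS libraries (change −0.34, adjusted p = 0.116), and Scn8a had 12, 14 and 14 in ASO and 9, 12 and 13 in PBS libraries (0.24, adjusted p = 0.675). Bases covered by enriched clusters were 1643 to 1674 in ASO and 1692 to 1799 in PBS libraries for Scn2a (change −0.06, adjusted p = 0.158). For Scn8a they were 1801 to 1878 in ASO and 1830 to 2016 in PBS libraries, a change of −0.06 in the other direction (adjusted p = 0.417). Scn1a averaged 29.4 ± 0.58 in ASO and 27.9 ± 1.46 in PBS libraries (change 0.08, adjusted p = 0.24), Scn3a 9.46 ± 0.15 and 9.53 ± 1.16 (adjusted p = 0.981), and Scn9a had 0, 1 and 1 enriched clusters in ASO and 0, 0 and 1 in PBS libraries and was not tested.

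Of 37 member sites tested after the ASO 1 passed, where 2.27% of all sites did, and it was the exon 27 site of Scn2a. Its assigned log2 fold was 2.83 to 3.14 in ASO and 2.00 to 2.14 in PBS libraries, means of 3.01 ± 0.16 and 2.05 ± 0.072, a difference of 0.96 (SE 0.15, adjusted p = 0.0294, and up to 0.109 on leaving out a library). The value of a site is that of the listed cluster with the greatest overlap, and here that was a different part of the site in each treatment. It was a cluster of 86 bases at the 3′ end in ASO and of 71 bases at the 5′ end in PBS libraries, since the site was divided into 4 clusters in ASO and 8 in PBS. At a part that began at the same base in both treatments (29 bases in ASO, 17 in PBS libraries) the log2 folds were 3.06, 2.99 and 3.42 in ASO and 3.12, 3.57 and 3.40 in PBS libraries, which overlapped. With the mean over all overlapping clusters the site did not pass (adjusted p = 0.944). The homologous Scn1a site had 3.11 ± 0.078 in ASO and 2.64 ± 0.080 in PBS libraries (difference 0.47, SE 0.14, adjusted p = 0.158).

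**Figure D5:**
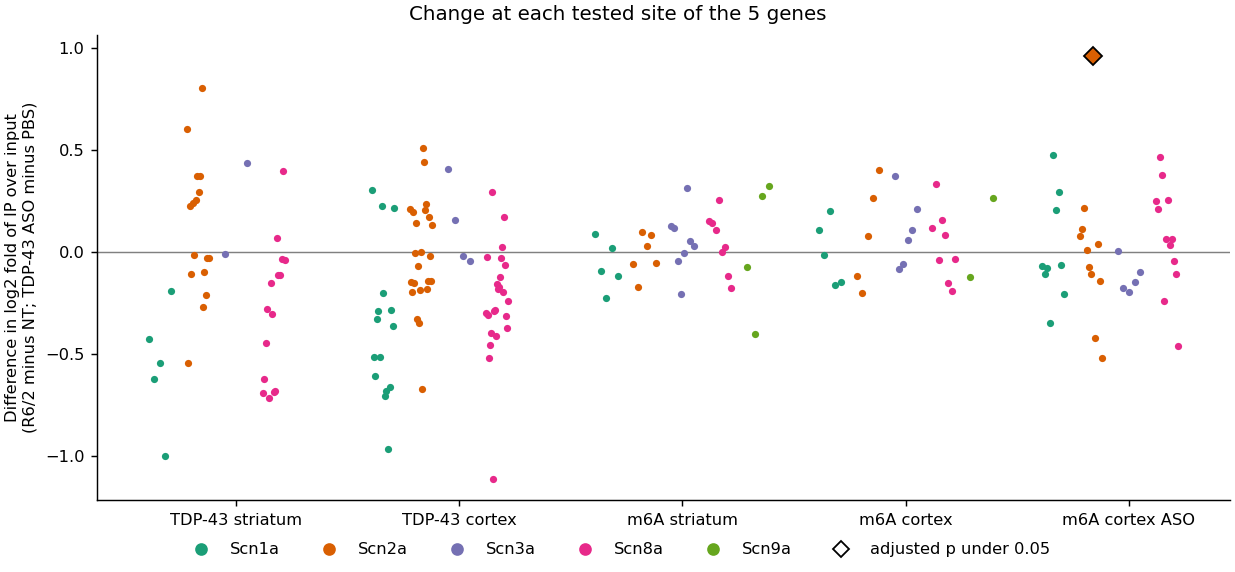
Difference in the log2 fold of IP over input at each tested site of the 5 genes (vertical axis), R6/2 minus NT in 4 comparisons and ASO minus PBS in the last, coloured by gene. The outlined diamond is the called Scn2a site at 0.96, whose value came from different parts of the site in the 2 treatments.

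Between regions of NT mice, Scn1a and Scn8a had fewer TDP-43 clusters in striatum than in cortex, where 52.1% of all genes were called and the median change of all genes was −0.66. Scn1a averaged 5.58 ± 3.08 in NT striatum and 12.9 ± 3.07 in NT cortex (change −1.46, SE 0.46, adjusted p = 0.0142), and Scn8a 17.3 ± 3.30 and 29.6 ± 3.88 (−0.77, SE 0.12, adjusted p = 6.02e-05), close to the median of all genes. Scn2a (−0.52, adjusted p = 0.162) and Scn3a (−0.23, adjusted p = 0.742) did not pass. For m6A, with 18.3% of genes called and a median of 0.02, Scn3a was higher in striatum at 16.3 ± 2.34, against 11.2 ± 2.78 in cortex (change 0.54, SE 0.12, adjusted p = 0.00338), and Scn8a lower at 32.2 ± 3.60, against 38.8 ± 5.09 (−0.26, SE 0.068, adjusted p = 0.00849). Scn9a averaged 2.89 ± 1.74 in NT striatum and 1.43 ± 1.46 in NT cortex and did not pass (1.0, SE 0.41, adjusted p = 0.106). With all listed clusters none of the 4 calls held (changes of −0.17, −0.05, 0.15 and −0.16, adjusted p between 0.108 and 0.697), and with abutting clusters joined the m6A call of Scn8a was lost (−0.05, adjusted p = 0.775).

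The other genes of the channel complex were read from a list of 23, namely other alpha subunits, beta subunits, FGF homologous factors, axon initial segment scaffolds, calmodulins and Nedd4 ligases. Scn4b, a beta subunit that covalently binds the alpha subunit and is abundant in striatum, was lower in R6/2 in all 4 comparisons. Its genotypes did not overlap in any of them, and such separation was not counted over all genes. Of all genes tested 14.3% and 7.52% were called for TDP-43 in striatum and cortex, and 9.66% and 6.24% for m6A. Scn4b averaged 10.5 ± 0.82 enriched TDP-43 clusters in R6/2 and 35.5 ± 10.6 in NT striatum (−1.67, adjusted p = 1.68e-06). For m6A it averaged 7.09 ± 1.25 clusters in R6/2 and 20.7 ± 2.56 in NT striatum (−1.49, adjusted p = 1.77e-09). It fell by 3.07 for TDP-43 and by 2.53 for m6A in cortex (adjusted p = 5.46e-06 and 5.21e-05). Without the intron-rich libraries the TDP-43 changes were −1.83 in striatum (adjusted p = 0.00301) and −2.86 in cortex (adjusted p = 2.05e-06). With abutting clusters joined, the m6A call of Scn4b in striatum was lost (−0.29, adjusted p = 0.0866) and the other 3 were not. No other listed gene was called for TDP-43. For m6A in striatum Calm3, a calmodulin gene (−0.61, adjusted p = 0.00991), and Ank3, the anchor of sodium channels at the initial segment (−0.21, adjusted p = 0.0485), were also lower, both calls being lost with clusters joined (−0.08 and −0.15), and in cortex none.

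Medium spiny neuron markers moved with Scn4b. Of the 9 markers 6 of 8 tested were called lower in R6/2 for TDP-43 in striatum and 3 of 3 in cortex. For m6A 8 of 9 were called lower in striatum and 5 of 7 in cortex. Of all genes tested 14.3, 7.52, 9.66 and 6.24% were called in these comparisons, in either direction. The part of the markers in the Scn4b result was not tested. Without the intron-rich libraries 3 of 8 markers were called for TDP-43 in striatum and 3 of 3 in cortex. With clusters joined 1 of 9 and 1 of 7 markers were called for m6A. The shares of all genes called in these refits are not given here. After the ASO 8 of 18 listed genes tested were called, where 30.5% of all genes were. The lower were 4, Nedd4 (−1.57) and Fgf14 (−0.56) the most, and the higher were 4, Nedd4l (0.63) the most. With abutting clusters joined 2 of the 8 were called, Fgf14 (−0.49) among them, and 2 beta subunits were called lower only then. Both Nedd4 ligases, which ubiquitinate sodium channels, lost the call (−0.25 for Nedd4, 0.04 for Nedd4l). Over all genes, too, far fewer were called after the ASO with clusters joined. Between NT regions Scn4b was higher in striatum for TDP-43 (1.91) and m6A (2.07), Scn2b for TDP-43 (0.67) and Sptbn4, a spectrin of the initial segment, for m6A (0.44). Nrcam (−2.33) and Scn3b (−1.36) were lowest in striatum for TDP-43, and Fgf12 (−0.45) was the gene called lower for m6A.

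Over the 32 libraries of an assay the genes whose normalized clusters ran most like a member's were, for TDP-43, Adar, Pik3r2 and Rap1gds1 for Scn1a (Pearson r 0.89, 0.88 and 0.88 on the log2 scale), Aak1, Srgap3 and Svop for Scn2a (0.94, 0.92 and 0.91), Zc3h18, Jakmip2 and Brf1 for Scn3a (0.70, 0.68 and 0.68), and Dock3, Kpnb1 and Ttbk2 for Scn8a (0.93, 0.92 and 0.90), among 2904 genes. For m6A, among 9084 genes, they were D430041D05Rik, Nol4 and Sv2b for Scn1a (0.78, 0.77 and 0.74), Frmpd4 and Dmxl1 for Scn2a (0.72 and 0.72), Zfp503, Pou3f4 and Golga4 for Scn3a (0.77, 0.77 and 0.76), Gfod1, Gpr26 and Lmtk2 for Scn8a (0.85, 0.78 and 0.78), and Zgrf1, Gm37494 and Rsbn1 for Scn9a (0.88, 0.86 and 0.84). The points share library depth, region and genotype, so that these are descriptions.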

How the data were processed

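TDP-43 and m6A eCLIP cluster lists of 70 IP libraries were used. The authors called clusters with CLIPper on mm10 and deposited, per cluster, a −log10 p and a log2 fold of IP over input reads. The lists hold no reads, so the depth of sequencing is unknown, and p-values measure the spread between libraries. The 5 members and all gene lists were chosen with earlier results of these data known. The midpoint and strand of a cluster placed it in a GENCODE vM21 gene. The main value was enriched clusters (−log10 p of at least 3, log2 fold above 0) per gene over median-ratio size factors, for genes with 2 or more in at least 50% of libraries, with 0.5 added before log2, or the log2 fold of the listed cluster with the greatest overlap per site (tested where at least 6 of 8 libraries of each genotype listed it). Tests used limma 3.58.1 (lmFit, eBayes, two-sided, Benjamini-Hochberg over all genes or sites, called under 0.05) in R 4.3.3, with sex as a covariate for R6/2, checked on simulated data. Alternatives were all listed clusters (10 or more, 4 added), the study's thresholds, covered bases, 2 added, no filter, total scaling, a replicate block, stricter sites, mean over clusters and leaving out libraries. Joined abutting clusters, sex-wise fits, fits without intron-rich libraries (cortex, and sites, there listed in 75% of the libraries left) and Scn9a listed-cluster fits were added after seeing the data. Named were the members, called partner genes (2 highest, 2 lowest per comparison), the 3 most correlated genes and the 3 most frequent sites per member and assay. Some genes that the rule names, and some site sequences, are not reported here. Sequences are from the RefSeq GRCm38 genome. Python 3.11.15, numpy 2.4.6, pandas 2.3.3, scipy 1.17.1 and matplotlib 3.10.9 were used. Input libraries had no list here.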

Additional observations from a re-analysis of the deposited data

Results flagged for a closer look

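Within groups of 4 libraries of a sex, genotype and region, 4 of 72 tested sets of member values had a library far from its group, where chance flags about 1 in 20. NT male 1 was the lowest for Scn2a in TDP-43 striatum (2.504 normalized clusters, the next 17.87) and in m6A cortex (26.63, the next 40.4). R6/2 female 4 was the only library of its group above 0 for Scn3a in TDP-43 striatum (1.692). R6/2 female 2 was the lowest for Scn8a in m6A cortex (23.78, the next 31.59).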

How the results depend on the processing

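Of 592 alternative values for single genes, 525 kept direction and side of the threshold, 43 changed direction, 18 lost the call and 6 gained one, and 112 of 219 alternative counts stayed within 1.5 times. The cause was not tested. Genes called with all listed clusters numbered 1233 (TDP-43 striatum), 521 (m6A striatum), 296 (m6A cortex), 9106 (ASO, Scn1a −0.085, where cluster intervals are shared within a treatment), 1078 (m6A, NT regions), 71 and 13 (difference between regions, TDP-43 and m6A). Directions then turned for TDP-43 Scn1a in striatum (0.17), Scn2a (−0.082) and Scn3a (−0.014) in cortex and m6A Scn3a in striatum (−0.023), between NT regions for TDP-43 Scn2a (0.018) and Scn3a (0.30), and in the difference between regions for TDP-43 Scn1a (0.19) and Scn8a (0.067) and m6A Scn1a (0.026) and Scn9a (0.051). At the thresholds of the study the counts were 72 and 101 (TDP-43 striatum and cortex), 3 and 3 (m6A), 5 (ASO), 879 and 55 (NT regions), and 0 and 0 (limma, difference between regions), with turns for m6A Scn2a (0.0034) and Scn9a (−0.048) in striatum, Scn8a in cortex (0.057), between NT regions (0.091) and in the difference between regions (−0.45). By covered bases they were 197, 163 and 284 (TDP-43 striatum, cortex, ASO), with turns for m6A Scn1a (0.026), Scn2a (0.0499) and Scn8a (0.015) in striatum, Scn1a in cortex (0.0011), and Scn1a (−0.074), Scn3a (0.045) and Scn8a (−0.055) after the ASO. Scaling by the total turned Scn3a after the ASO (0.015).

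With abutting clusters joined (added after seeing the data) 165 (TDP-43 cortex), 147 and 116 (m6A striatum and cortex), 658 (ASO), 677 (m6A, NT regions) and 11 genes (m6A, difference between regions) were called. On the same genes the main fits called 282 (TDP-43 cortex), 916 and 552 (m6A striatum and cortex) and 3018 (ASO). For m6A they called 1655 between NT regions and 23 for the difference between regions. TDP-43 Scn2a in cortex (−0.062), m6A Scn1a (0.0695), Scn2a (0.24), Scn3a (−0.014) and Scn8a (0.074) in striatum, Scn1a (0.10) and Scn8a (0.0745) in cortex, Scn1a (−0.26) and Scn3a (0.26) after the ASO and Scn8a in the difference between regions (−0.00099) turned. Without the 5 intron-rich libraries, which left R6/2 males only, 27 genes were called in TDP-43 striatum, against 318 in the main fit. Scn1a (0.92) and Scn8a (0.26) turned. Without these and the 3 of cortex (added after seeing the data), 0 and 3 sites were called for TDP-43 in striatum and cortex (limma, 1216 and 2661 at an unadjusted p under 0.05).

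Labels give both genotypes the same replicate numbers. For TDP-43 same-numbered libraries did not steadily deviate together, with correlations of −0.45 to 0.46 (−0.17 to 0.46 between genotypes in striatum). For m6A between NT regions the correlations were all positive and small, at 0.023 to 0.089. Labels do not say whether same-numbered striatum and cortex libraries come from 1 mouse, and the main fits did not pair them. With the replicate block 128 (TDP-43 cortex), 1936 (ASO) and 1 gene (TDP-43, difference between regions) and 28, 24, 1, 0 and 0 sites (TDP-43 striatum and cortex, m6A striatum and cortex, ASO) were called. Sites called were 25 among those listed in every library (TDP-43 striatum), 24 among stricter sites (m6A striatum), and 37, 2 and 7 with the mean over clusters (m6A striatum, m6A cortex, ASO).

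Leaving out each library in turn gave 153 to 338 genes in TDP-43 cortex (fewest without NT male 1) and 1948 to 2765 after the ASO, and 12 to 277, 21 to 140, 5 to 12, 0 to 3 and 23 to 214 sites (limma). The change ran between −0.18 and 0.35 for Scn2a in TDP-43 striatum (lowest without NT male 1), −0.0503 and 0.59 for Scn3a in TDP-43 cortex, −0.091 and 0.011 for Scn2a and −0.0082 and 0.10 for Scn3a in m6A striatum, and −0.0701 and 0.082 for Scn3a after the ASO. The lists hold no reads, so depth limits cannot be computed, and Scn3a and Scn9a, with fewest clusters, were tested in part of the comparisons.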
